A study of Homo sapiens with 24 samples.

Results

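The genes described here are 10 targets and antagonists of Wnt signalling, AXIN2, NKD1, RNF43, ZNRF3, DKK1, DACT3, LGR5, ASCL2, TCF7 and MYC, in the human colon adenocarcinoma cell line HT29. Every non-control probe whose gene name on the array was that of a member was taken, which gave 14 probes of the 50599 on the array and 10 of its 36337 gene names. All 10 genes had a probe that passed the filter on dim signals, 13 of the 14 probes passed it, and the exception was a second MYC probe. HT29 cells, an established epithelial line that carries a mutated APC gene, were grown in DMEM with fetal calf serum and exposed for 6 h, with 4 one-colour arrays in each of 6 groups. NT cells were left untreated. C3/C2 cells received 30 mM propionate and 15 mM acetate, the short-chain fatty acids that the bacterium Propionibacterium freudenreichii secretes. SN cells received culture supernatant of that bacterium at a dilution of 1 in 2, which brings these acids in similar amounts together with whatever else the culture holds. TRAIL cells received 100 ng/ml of the Flag-tagged death ligand TRAIL with 2 µg/ml of anti-Flag antibody to cross-link it. TRAIL+C3/C2 and TRAIL+SN cells received TRAIL together with the acids or the supernatant. The line is a single tumour-derived line, so the values say nothing of other APC genotypes.

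In the canonical Wnt pathway, a Wnt ligand bound to Frizzled and LRP receptors stops a complex of APC, AXIN and GSK3 from marking beta-catenin for destruction, and beta-catenin then works with TCF/LEF proteins on target genes. Many targets are brakes on the pathway itself, and others, such as LGR5, ASCL2 and MYC, mark or drive the stem and progenitor cells at the base of the colonic crypt. A truncated APC leaves beta-catenin active without any ligand, which is common in colon cancer.

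The probe stretches below identify what was measured for the 5 printed members on which the results turn. Each is the first 30 bases of the 60-base probe as the array files give it, 5′ to 3′, with no letters marked. In hg19 they lie on the minus strand at chr19:47150936-47150965 for DACT3, on the plus strand at chr12:71978325-71978354 for LGR5, on the minus strand at chr11:2289989-2290018 for ASCL2, on the plus strand at chr10:54076687-54076716 for DKK1 and on the minus strand at chr17:56431093-56431122 for RNF43. Whether each lies in coding or untranslated exon was not determined, since no annotation of that build was used.
DACT3: gtatttattatgacgatggtgactccccag
LGR5: acacccaagcttgatgtcaattaactctga
ASCL2: ctgctggagggacactgctggcaaacggag
DKK1: aataacaccttccaaaaacctggagtgtaa
RNF43: gggtatttatatctgaaccagacagacgct

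Promoter sequence from RefSeq (GRCh38.p14) was at hand for 4 of the 10 members, DACT3, DKK1, RNF43 and TCF7. The 250 bases before a transcription start are shown for the 3 of them that were called in at least 1 comparison, to set the member with the largest rise beside 2 that fell. Capitals mark matches on either strand to CTTTGAT or CTTTGAA, the core letters of a TCF/LEF site, or to GGGCGG, a GC box. DACT3 has an upstream start, at chr19:46661183-46661432 on the minus strand, and a downstream start, at chr19:46654719-46654968 on the minus strand. DKK1 is at chr10:52314031-52314280 on the plus strand and the upstream RNF43 start at chr17:58417535-58417784 on the minus strand.
DACT3 upstream start: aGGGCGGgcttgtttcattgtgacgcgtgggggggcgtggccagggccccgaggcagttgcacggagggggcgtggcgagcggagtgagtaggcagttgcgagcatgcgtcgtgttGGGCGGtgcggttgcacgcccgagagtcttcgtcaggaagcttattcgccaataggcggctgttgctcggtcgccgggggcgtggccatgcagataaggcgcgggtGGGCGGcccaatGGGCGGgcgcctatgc
DACT3 downstream start: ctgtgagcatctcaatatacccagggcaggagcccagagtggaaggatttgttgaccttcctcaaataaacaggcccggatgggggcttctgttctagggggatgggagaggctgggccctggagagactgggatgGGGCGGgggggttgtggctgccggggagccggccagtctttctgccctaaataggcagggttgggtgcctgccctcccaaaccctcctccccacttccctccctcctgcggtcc
DKK1: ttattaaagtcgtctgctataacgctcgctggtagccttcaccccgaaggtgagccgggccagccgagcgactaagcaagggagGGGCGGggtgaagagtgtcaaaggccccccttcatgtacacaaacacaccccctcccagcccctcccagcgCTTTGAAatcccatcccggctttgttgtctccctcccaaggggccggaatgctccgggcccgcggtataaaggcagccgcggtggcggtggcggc
RNF43 upstream start: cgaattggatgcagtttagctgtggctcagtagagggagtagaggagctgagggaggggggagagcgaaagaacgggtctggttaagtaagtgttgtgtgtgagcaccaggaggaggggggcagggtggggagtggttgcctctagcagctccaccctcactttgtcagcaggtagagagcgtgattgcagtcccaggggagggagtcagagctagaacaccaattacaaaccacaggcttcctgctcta

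The window before the upstream DACT3 start held 4 GC boxes and 28 CpG dinucleotides, where 7.63% of all 35116 promoter windows held at least as many GC boxes and 15.9% at least as many CpG. The downstream DACT3 window held 1 GC box and 5 CpG. The DKK1 window held 1 GC box, 18 CpG and 1 TCF/LEF match, which begins 95 bases before the start. Neither DACT3 window and neither of the 2 RNF43 windows held a TCF/LEF match, and the upstream RNF43 window had 0 GC boxes and 4 CpG. Over all windows, 5.94% held a TCF/LEF match and 42.6% a GC box, with a median of 11 CpG. The matches are letters in a window and were not tested as binding sites.

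Levels below are log2 of the scanner intensity minus the 75th percentile of the same array, so that 0 is that percentile. A probe counted as well above background on an array by the scanner software's own flag. A gene was called when its fold change was 2 or more and its adjusted p was under 0.05 in a limma fit over 20703 genes. Between 49.8% and 57.8% of probes were well above background on an array, no spot was saturated, and the 75th percentile of intensity ran from 453 on a TRAIL+C3/C2 array to 1009 on an NT array. The arrays sat on 4 slides. NT and C3/C2 replicate 1 shared slide 1, their other replicates shared slide 2, all SN and TRAIL arrays shared slide 3 and all co-treatment arrays shared slide 4, so slide and treatment cannot be told apart where SN, TRAIL or a co-treatment is set against NT, or SN against C3/C2. All 12 epithelial markers were well above background on all 24 arrays, among them CDH1, KRT8 and VIL1. The fibroblast markers COL1A2, COL3A1 and DCN were above it on none and LUM on all, the leukocyte markers PTPRC and CD14 and the endothelial markers CDH5, PECAM1 and VWF on all, and KDR on none. In such bulk RNA, fewer cells of a type and less RNA per cell cannot be told apart. The labels number the replicates but do not say that they were separate cultures. The study's methods speak of 2 independent experiments in duplicate, and the labels do not say which replicates are duplicates of each other. The p-values here therefore measure only the spread between these arrays, which may be partly technical.

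Under C3/C2, 2 members were called higher and 3 lower than NT, where 13.4% of all genes tested were called higher and 6.18% lower. With SN, 2 were higher and 4 lower, against 14.2% and 9.75% of all genes. With TRAIL, 0 members were called in either direction, against 0.749% and 2.18% of all genes. No member reached 2-fold with TRAIL, the largest difference being −0.47 for DACT3, so the choice of p could not change this count. With TRAIL+C3/C2, 2 were higher and 4 lower, against 16.2% and 7.94%, and with TRAIL+SN, 1 was higher and 4 were lower, against 16.1% and 10.1%. DACT3 and the dim NKD1 were the members called higher, and NKD1 entered the test through the C3/C2 arrays alone, where it was high, so its calls were open to that choice. MYC, ASCL2, LGR5, DKK1 and RNF43 were each called lower in at least 2 of the comparisons. AXIN2, ZNRF3 and TCF7 were called in none. Without the 2-fold minimum, C3/C2 raised 3 members and lowered 7, beside 35.2% and 27.7% of all genes. By that rule SN raised 3 and lowered 5 (35.1% and 34.2% of all genes) and TRAIL raised 1 and lowered 1 (20.3% and 13.1%). In the co-treatment with SN 3 were past it in the higher and 6 in the lower direction (37.4% and 32.7%), the 3 including NKD1 at background, and that with C3/C2 raised 3 and lowered 5 (39.9% and 29.5%). The median log2 difference of the members was −0.47 under C3/C2 beside 0.08 over all genes, and −0.39 under SN beside −0.02. Under TRAIL it was 0.04 beside 0.03, under TRAIL+SN −0.50 beside 0.04 and under TRAIL+C3/C2 −0.25 beside 0.10. The 5 comparisons share the 4 NT arrays. The balance of calls over all genes moved with the scaling: with C3/C2 it was 2784 higher and 1279 lower here and 2001 and 2346 with each array divided by its median, and with TRAIL+C3/C2 it was 3364 and 1643 here and 1556 and 6078 with spike-in scaling.

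**Figure D1:**
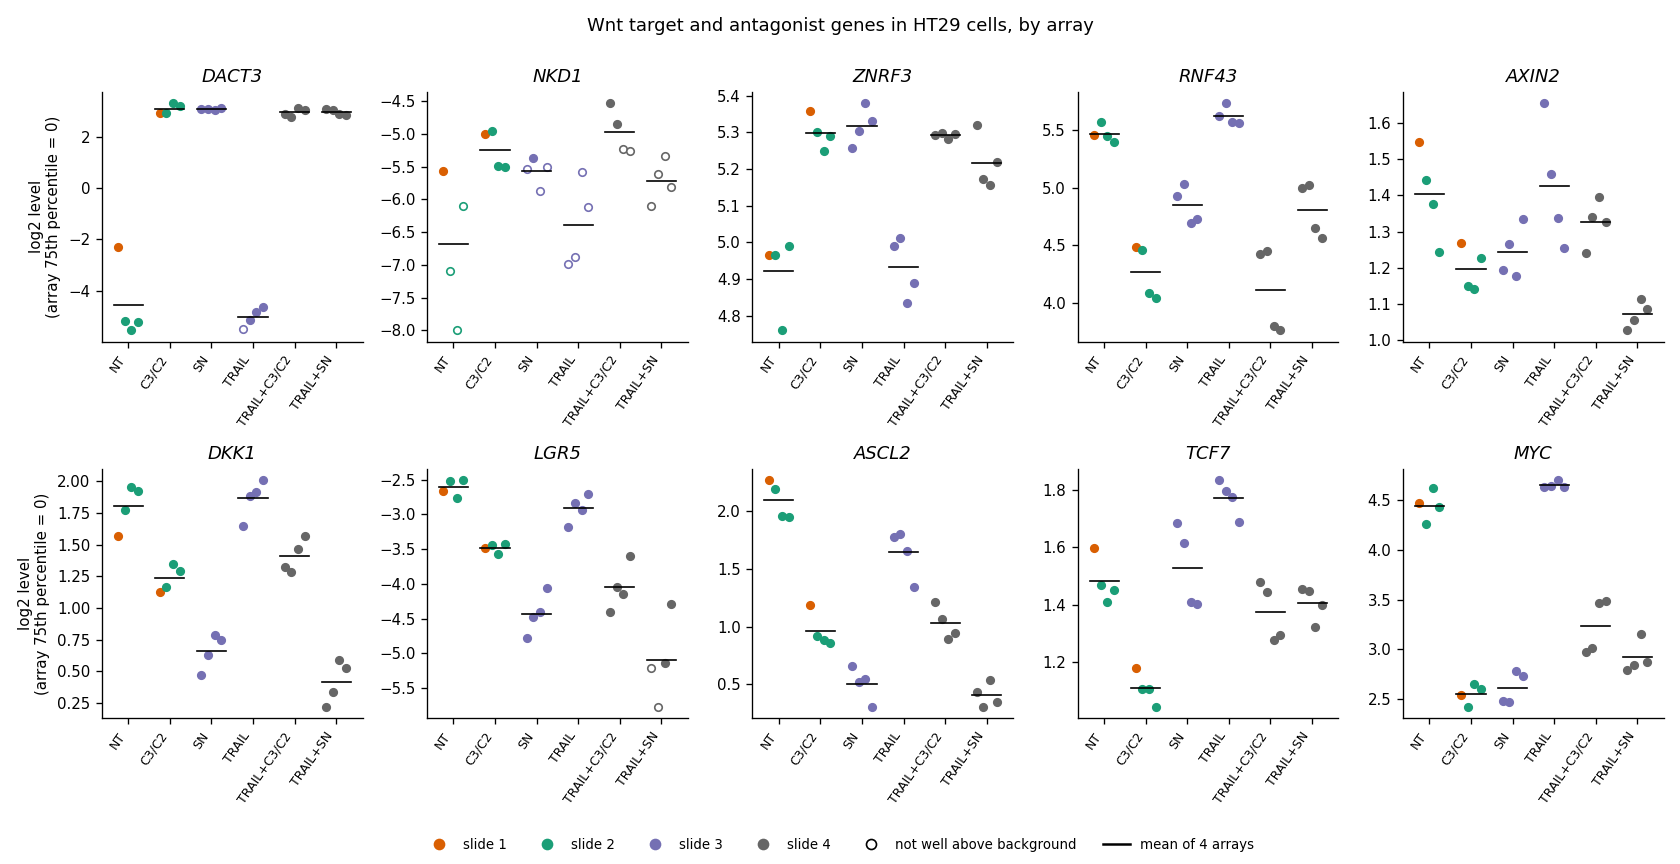
Log2 level of each of the 10 genes (y axis, own scale per panel, 0 is the 75th percentile of the array) on each of 4 arrays in 6 groups (x axis), coloured by slide, with open circles for arrays where the probe was not well above background and a line at the mean. DACT3 lies between 2.78 and 3.30 in the 4 groups with acids or supernatant and between −5.55 and −2.28 in NT and TRAIL.

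DACT3, which encodes a protein that binds and restrains Dishevelled downstream of Frizzled, went from near the detection limit to clearly above the 75th percentile wherever acids or supernatant were present. Its level in the NT arrays was −2.28, −5.19, −5.55 and −5.24. With C3/C2 it was 2.93, 2.94, 3.30 and 3.20. With SN it was 3.10, 3.09, 3.06 and 3.14. The C3/C2 and SN arrays lay within 0.37 of each other, and at least 5.21 above the highest NT array, so the groups do not overlap. With TRAIL the levels were −5.49, −5.13, −4.84 and −4.65, and the first of these was not well above background. With TRAIL+C3/C2 they were 2.89, 2.78, 3.13 and 3.06, and with TRAIL+SN they were 3.08, 3.06, 2.91 and 2.87. The TRAIL arrays lay in the range of the NT arrays, and both co-treatments lay with C3/C2 and SN.

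Since DACT3 was known from earlier results to rise, its rises are given as a description without p. The log2 difference from NT was 7.54 in the TRAIL+SN arrays, 7.53 in the TRAIL+C3/C2 arrays and 7.65 in the C3/C2 arrays (SE 0.44, n = 4 each). With TRAIL it was −0.47 (95% interval −1.38 to 0.44, adjusted p = 0.45). Against TRAIL, which shares slide 3 with SN, the difference of SN was 8.13 (95% interval 7.22 to 9.04). Within slide 2 alone, the difference of C3/C2 from NT was 8.47. SN and C3/C2 differed by 0.00 (95% interval −0.90 to 0.91) and the co-treatments by 0.02 (95% interval −0.89 to 0.92), so a difference of nearly 2-fold either way is within the error. The wide error comes with NT replicate 1, which lay 3.05 above the mean of the other NT arrays. Leaving it out raised these differences to 8.30, 8.29 and 8.42 and turned that of TRAIL to 0.29. With normexp background correction the difference was 5.97 with C3/C2 and 5.81 with TRAIL+C3/C2, since that correction lifts dim signals.

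NT replicate 1 lies on slide 1 with C3/C2 replicate 1. Of 27957 probes, 10 were at least 2 log2 units higher there than on every other NT array and 1 was at least as far below them. Of those 10 probes, 6 averaged at least 1 log2 unit above NT replicates 2 to 4 in the groups with acids or supernatant, which is 60% beside 14.7% of all probes. What set this array apart was not tested.

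The named genes with the pattern most like that of DACT3 over the 24 arrays, by Pearson's r of the log2 level, were ADC (named AZIN2 in RefSeq) at 0.990, RNASE1 at 0.989, SCAMP5 at 0.989, ANKRD35 at 0.987 and FAM46B (TENT5B in RefSeq) at 0.987. The arrays fall into 2 clusters for each of these genes, so r mostly records the gap between groups, and it is given as a description. ADC passed the background flag on 0 NT arrays and on 4 of 4 with C3/C2, where its level was at least 51.7-fold higher, and at least 37.9-fold higher with TRAIL+SN. RNASE1, a secreted ribonuclease, lay between −1.62 and −1.26 in NT and between 0.75 and 1.22 with TRAIL+SN. SCAMP5, a membrane protein of secretory vesicles, differed from NT by 3.80 with C3/C2 and 4.19 with SN. ADC was at background in TRAIL too, and the differences with TRAIL for the other 4 genes ran from −0.26 to 0.25.

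**Figure D2:**
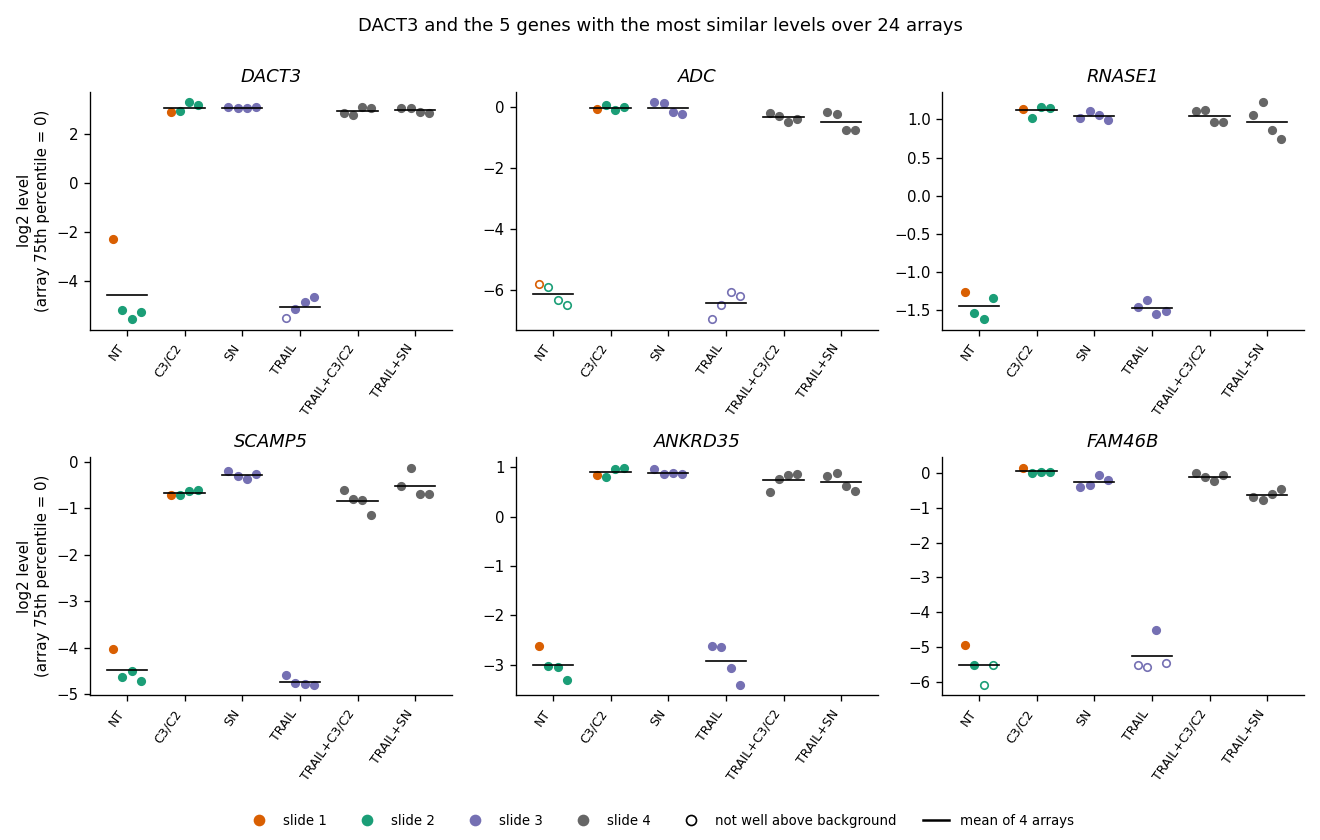
Log2 level (y axis, own scale per panel) of DACT3 and of the 5 named genes most correlated with it, on each of 4 arrays in 6 groups (x axis), coloured by slide, with open circles for arrays where the probe was not well above background. All 6 genes are low in NT and TRAIL and high in the other 4 groups, and NT replicate 1 of DACT3, at −2.28, stands apart from the other NT arrays.

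MYC, the transcription factor that drives growth and ribosome production, had the largest fall with C3/C2 among the members. Its level on the NT arrays was 4.47, 4.26, 4.62 and 4.43. With C3/C2 it was 2.54, 2.42, 2.65 and 2.60, and with SN it was 2.48, 2.47, 2.78 and 2.73. The groups do not overlap. With TRAIL+C3/C2 the levels were 2.97, 3.01, 3.47 and 3.48 and with TRAIL+SN they were 2.79, 2.85, 3.16 and 2.88, between the acid-treated and the NT arrays. MYC fell by 1.89 under C3/C2 (SE 0.11, adjusted p = 6.14e-12) and by 1.83 under SN. In the co-treatments it fell by 1.53 when TRAIL was joined to SN and by 1.21 when it was joined to C3/C2. On slide 3, SN was 2.04 below TRAIL (SE 0.11, adjusted p = 1.53e-12). With TRAIL the levels were 4.63 to 4.70, above every NT array, but the difference of 0.21 (95% interval −0.03 to 0.45) did not pass the test (adjusted p = 0.173). SN and C3/C2 differed by 0.06 (95% interval −0.18 to 0.30), and TRAIL+SN was 0.31 below TRAIL+C3/C2 (adjusted p = 0.0366). The departure of TRAIL+C3/C2 from the sum of its parts was 0.47 (adjusted p = 0.136). These values come from a probe with 10 spots per array, at chr8:128753268-128753327 in hg19.

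ASCL2, a transcription factor of intestinal stem cells, fell in each treatment with acids or supernatant. Its level was 2.27, 2.19, 1.96 and 1.95 on the NT arrays, 1.18, 0.92, 0.88 and 0.86 with C3/C2, and 0.66, 0.52, 0.54 and 0.30 with SN. With TRAIL it was 1.77, 1.80, 1.66 and 1.35, with TRAIL+C3/C2 it was 1.21, 1.06, 0.89 and 0.95, and with TRAIL+SN it was 0.43, 0.30, 0.54 and 0.35. No treated array reached the lowest NT array. ASCL2 fell by 1.13 with C3/C2 (SE 0.11, adjusted p = 9.02e-09), by 1.59 with SN (adjusted p = 3.34e-11), by 1.69 in the TRAIL+SN arrays and by 1.07 in the TRAIL+C3/C2 arrays. It was the member that passed the adjusted p in the lower direction with TRAIL, at −0.45 (adjusted p = 0.00309), short of the 2-fold minimum. Both supernatant groups lay below the matching acid group, by −0.46 for SN against C3/C2 (adjusted p = 0.00162) and by −0.62 for TRAIL+SN against TRAIL+C3/C2 on 1 slide (adjusted p = 0.000119).

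LGR5, the R-spondin receptor that marks crypt base stem cells, was dim and fell further with SN than with C3/C2. Its level was −2.67, −2.51, −2.76 and −2.50 on the NT arrays, −3.49, −3.44, −3.57 and −3.42 with C3/C2, and −4.78, −4.48, −4.41 and −4.06 with SN. These 3 groups do not overlap. With TRAIL it was −3.18, −2.83, −2.94 and −2.70 and with TRAIL+C3/C2 it was −4.41, −4.05, −4.15 and −3.59. With TRAIL+SN it was −5.20, −5.77, −5.13 and −4.29, and the first 2 of these were not well above background. LGR5 fell by 1.82 with SN (SE 0.22, adjusted p = 2.17e-07), by 2.49 in the TRAIL+SN arrays and by 1.44 in the TRAIL+C3/C2 arrays. With C3/C2 the difference of −0.87 passed the adjusted p (0.0016) without reaching 2-fold, and it was called with 3 other scalings, at −1.17 with each array divided by its median, −1.10 with quantile normalization and −1.02 with spike-in scaling. With TRAIL it was −0.30 (95% interval −0.76 to 0.15). SN differed from C3/C2 by −0.95 (adjusted p = 0.00124), a difference that was called without SN replicate 4 (−1.08), and TRAIL+SN differed from TRAIL+C3/C2 by −1.05 (adjusted p = 0.00071), which was called. That call was lost with those 3 scalings (−0.90, −0.91 and −0.82) and without TRAIL+C3/C2 replicate 4 (−0.90) or TRAIL+SN replicate 2 (−0.83). With normexp correction that call was lost too (−0.32). The differences from NT were then −0.88 for SN, −0.78 for TRAIL+SN and −0.46 for TRAIL+C3/C2, and none of the 3 was called.

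DKK1, a secreted protein that blocks the coreceptors LRP5 and LRP6, fell mainly with the supernatant. Its level was 1.57, 1.78, 1.96 and 1.92 on the NT arrays, 1.12, 1.17, 1.35 and 1.30 with C3/C2, and 0.47, 0.63, 0.78 and 0.75 with SN. With TRAIL it was 1.65, 1.89, 1.92 and 2.01, with TRAIL+C3/C2 1.33, 1.29, 1.46 and 1.57, and with TRAIL+SN 0.22, 0.34, 0.59 and 0.53. The supernatant arrays lay below every array of the other 4 groups. DKK1 fell by 1.15 with SN (SE 0.10, adjusted p = 2.95e-09) and by 1.39 with TRAIL+SN (adjusted p = 1.29e-10), and within slide 3 SN differed from TRAIL by −1.21 (adjusted p = 1.46e-09). The differences of −0.57 with C3/C2 and −0.39 with TRAIL+C3/C2 passed the adjusted p without reaching 2-fold. With spike-in scaling the latter was −1.12 and called, and SN against TRAIL was −0.90 and not called. SN differed from C3/C2 by −0.58 (adjusted p = 0.000123), and TRAIL+SN from TRAIL+C3/C2 by −0.99 (95% interval −1.21 to −0.78, adjusted p = 2.58e-07). The latter was called without TRAIL+C3/C2 replicate 1 (−1.02) or 2 (−1.04) or without TRAIL+SN replicate 3 (−1.05) or 4 (−1.03).

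RNF43, a ubiquitin ligase that removes Frizzled from the cell surface, moved the other way between supernatant and acids: its fall was larger with the acids. Its level was 5.45, 5.57, 5.45 and 5.40 on the NT arrays, 4.49, 4.46, 4.09 and 4.04 with C3/C2, and 4.93, 5.04, 4.69 and 4.73 with SN. With TRAIL it was 5.63, 5.73, 5.57 and 5.56, with TRAIL+C3/C2 4.43, 4.45, 3.80 and 3.77, and with TRAIL+SN 4.99, 5.02, 4.65 and 4.57. In each treated group replicates 1 and 2 lay above replicates 3 and 4. RNF43 fell by 1.20 with C3/C2 (SE 0.15, adjusted p = 5e-07) and by 1.35 with TRAIL+C3/C2 (adjusted p = 7.06e-08). With SN the difference was −0.62 and with TRAIL+SN −0.66, both past the adjusted p but under 2-fold, though the latter was −1.16 and called with spike-in scaling. SN lay above C3/C2 by 0.58 (adjusted p = 0.00355) and TRAIL+SN above TRAIL+C3/C2 by 0.70 (adjusted p = 0.001). With TRAIL the difference was 0.16 (95% interval −0.16 to 0.47), from a fit that did not pair the replicates. Each TRAIL array lay above the NT array of the same number. A replicate block leaves the difference at 0.16, short of the 2-fold minimum, so the lack of a call says nothing of the pairing.

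ZNRF3, the close relative of RNF43 with the same action on Frizzled, did not follow it. It lay between 4.76 and 4.99 on the NT arrays, 5.25 and 5.36 with C3/C2 and 5.26 and 5.38 with SN. It rose by 0.38 with C3/C2 (SE 0.06, adjusted p = 4.34e-06), by 0.40 with SN and by 0.39 in SN against TRAIL on slide 3, all under 2-fold. With TRAIL+C3/C2 the difference was 0.37 and with TRAIL+SN 0.30, but with spike-in scaling they turned to −0.36 and −0.21. A second ZNRF3 probe gave 0.48 with C3/C2 and 0.85 with SN (SE 0.08), and 0.08 with TRAIL.

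AXIN2, a scaffold of the destruction complex and a widely used readout of beta-catenin activity, changed little. It lay between 1.24 and 1.55 on the NT arrays, and between 1.03 and 1.65 over all others. The difference was −0.21 with C3/C2 (SE 0.07, adjusted p = 0.0198) and −0.33 with TRAIL+SN (adjusted p = 0.000433), and it did not pass the test with SN (−0.16, 95% interval −0.32 to −0.01), TRAIL (0.02) or TRAIL+C3/C2 (−0.08). A second AXIN2 probe disagreed, with differences of 0.19 for C3/C2, 0.44 for TRAIL (adjusted p = 0.00666) and 0.45 for TRAIL+C3/C2 (adjusted p = 0.00183). The direction for AXIN2 is therefore uncertain.

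NKD1, another protein that restrains Dishevelled, was at the detection limit. Its probe passed the flag for signal above background on 1 of 4 NT arrays, 4 of 4 C3/C2 arrays, 1 of 4 SN arrays, 0 of 4 TRAIL arrays, 2 of 4 TRAIL+C3/C2 arrays and 0 of 4 TRAIL+SN arrays. Its level was −5.57, −7.09, −8.00 and −6.10 on the NT arrays and −5.00, −4.96, −5.50 and −5.51 with C3/C2. The highest NT array (−5.57) lay just under the lowest C3/C2 array (−5.51), and the filter favoured such a gap. The C3/C2 group, where it was high, was the 1 group through which NKD1 passed the filter. The fitted difference with C3/C2 was 1.45 (SE 0.38), given without p since NKD1 was tested through these arrays. It was 1.12 with SN (adjusted p = 0.0135) and 1.72 with TRAIL+C3/C2 (adjusted p = 0.000449). Each is against NT arrays of which 3 were at background, and 1 of 4 SN arrays was above it. All 3 differences passed the thresholds for a call. No difference is given for TRAIL and TRAIL+SN, where no array was above background. All 3 calls were lost with normexp correction, to 0.35, 0.27 and 0.86, and that of SN without NT replicate 2 (0.98) or 3 (0.68), with the array median (0.99) or with only SN and NT in the fit (1.12, adjusted p = 0.0646). That of TRAIL+C3/C2 was lost with spike-in scaling (0.99).

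TCF7, which encodes a TCF/LEF factor and is itself a target, was the member whose response to TRAIL differed with the supernatant, on its brighter probe alone. It lay between 1.41 and 1.60 on the NT arrays, 1.04 and 1.18 with C3/C2, 1.40 and 1.68 with SN and 1.69 and 1.84 with TRAIL. It differed from NT by −0.38 with C3/C2 (SE 0.07, adjusted p = 5.83e-05), by 0.29 with TRAIL (adjusted p = 0.00231) and by 0.05 with SN (95% interval −0.10 to 0.19). The departure of TRAIL+SN from the sum of TRAIL and SN was −0.41 (SE 0.10, adjusted p = 0.00387), with 23.2% of all genes past that adjusted p, and it was −0.03 for TRAIL with C3/C2. On a second TCF7 probe that departure was −0.00 (SE 0.14), so the probes disagree. Of the 20 interactions of the 10 members, this was the 1 whose adjusted p was under 0.05, and 0 reached 2-fold, where 0.657% of all genes were called for C3/C2 and 3.1% for SN.

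**Figure D3:**
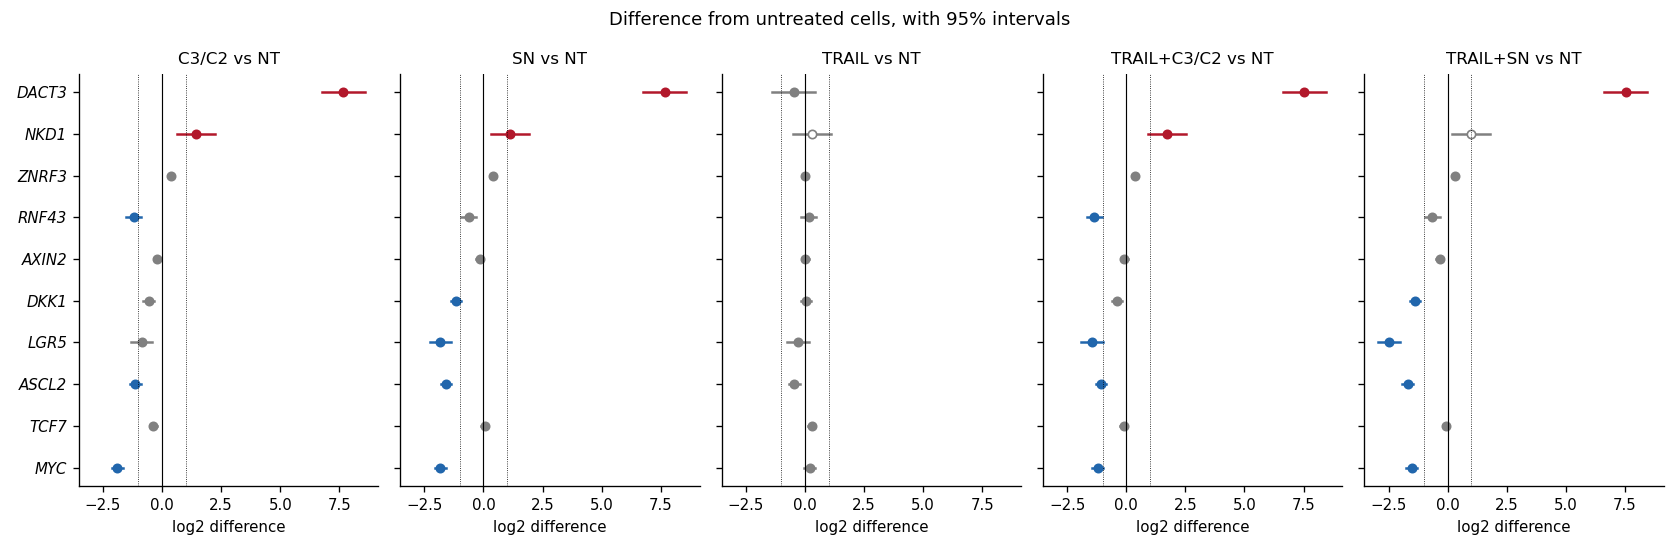
Log2 difference from NT (x axis) of the 10 genes (y axis) in 5 treatments, as points with 95% intervals, red where called higher, blue where called lower and grey where not called, with dotted lines at 2-fold and open points where a group had no array above background (NKD1). DACT3 is near 7.6 in every panel but that of TRAIL, where the 10 genes lie between −0.47 and 0.29.

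SN and C3/C2, which lie on different slides, differed in about as large a share of the members as of all genes. SN against C3/C2 passed the adjusted p, whatever the fold, in the lower direction for LGR5, DKK1 and ASCL2 and in the higher direction for RNF43 and TCF7, where 25.7% and 21.7% of all genes did so, and 0 members were called, where 1.28% of all genes were called higher and 4.41% lower (5.69% together). No member reached 2-fold there, the largest difference being −0.95 for LGR5, so the choice of p could not change this count. TRAIL+SN against TRAIL+C3/C2, which lie on 1 slide, passed it for LGR5, DKK1, ASCL2, MYC and AXIN2 in the lower direction and for RNF43 in the higher, where 21.7% and 15.9% of all genes did so. LGR5 was called lower in the second, and DKK1 lay just short of 2-fold, where 2.56% of all genes were called lower, 0.976% higher and 3.53% either way. LGR5, DKK1 and ASCL2 passed in the lower direction in both comparisons, and RNF43 in the higher. The share of all genes that passed in both was not computed, so this is given as a description. The intervals for DACT3 included 0 in both, as did those of the brighter ZNRF3 probe, but the second ZNRF3 probe gave 0.37 for SN against C3/C2 (adjusted p = 0.000589) and 0.22 in the co-treatments (adjusted p = 0.0334).

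**Figure D4:**
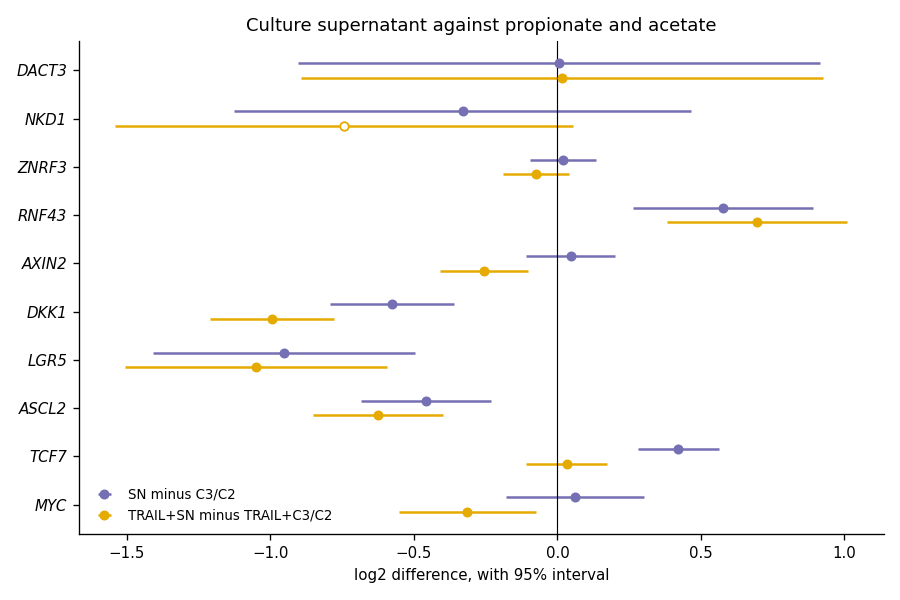
Log2 difference (x axis) of SN minus C3/C2 and of TRAIL+SN minus TRAIL+C3/C2 for the 10 genes (y axis), with 95% intervals and 4 arrays per group, and an open point for NKD1, which was above background on no TRAIL+SN array. LGR5, DKK1 and ASCL2 lie below 0 and RNF43 above 0 in both, and DACT3 is at 0.00 and 0.02.

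The rest of the pathway was read from a list of 99 other Wnt genes in 6 roles, of which 98 had a gene name on the array and 69 were tested. All NT arrays were above background for 64 of the 69, and 5 passed the filter through treated groups alone (7.25%, beside 7.59% of all genes tested), which were DACT1, TLE2, WNT1, WNT2B and WNT5B. Under C3/C2, 19 of the 69 were called higher and 2 lower, where 13.4% and 6.18% of all genes were, and their median log2 difference was 0.30. Under SN, 23 were higher and 3 lower (14.2% and 9.75% of all genes), with a median of 0.52. Under TRAIL, 1 was higher and 0 lower (0.749% and 2.18%), with a median of −0.03. TRAIL+SN gave 22 and 3 (16.1% and 10.1%, median 0.47) and TRAIL+C3/C2 gave 23 and 2 (16.2% and 7.94%, median 0.42). With spike-in scaling the TRAIL+C3/C2 counts were 15 and 12, and the TRAIL+SN counts 15 and 8. The calls over all genes moved the same way with that scaling. For TRAIL+C3/C2 they went from 3364 higher and 1643 lower to 1556 and 6078. For TRAIL+SN they went from 3323 and 2098 to 1905 and 4782. The added lower calls were therefore not particular to the Wnt genes.

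Of 13 ligands and genes of their secretion that were tested, 7 were called higher with C3/C2, where 13.4% of all genes were, 9 with SN (14.2%), 1 with TRAIL (0.749%) and 8 with TRAIL+SN and with TRAIL+C3/C2 (16.1% and 16.2%), and 0 were lower. WNT1, WNT2B and WNT5B, which had passed the filter through treated groups alone, were among these calls. WNT4 rose by 2.84 with C3/C2 and 3.36 with SN (SE 0.27). PORCN, the acyltransferase that Wnt ligands need for secretion, rose by 1.27 with C3/C2 and 1.77 with SN (SE 0.10). WNT6 rose by 2.25 with C3/C2 and 1.81 with SN (SE 0.15), and WNT10B by 1.60 and 1.57 (SE 0.22). WNT7B was called with SN (1.72, SE 0.13) and with both co-treatments. With normexp correction WNT10B stood at 0.87 and 0.89 and WNT6 at 0.95 with SN, and these calls were lost, as was that of PORCN with C3/C2 under the array median (0.97). WNT1 and WNT2B were also called, on probes that were well above background on 1 of 4 NT arrays. With normexp the WNT2B calls were lost for C3/C2 (0.54), SN (0.42) and TRAIL+SN (0.80). The WNT1 call with SN was lost with the array median (0.89), with quantile normalization (0.87), with normexp (0.38), and without NT replicate 2 (0.95), 3 (0.92) or 4 (0.98) or SN replicate 2 (0.94) or 4 (0.94). WNT5B was above background on 0 NT arrays and was at least 3.47-fold higher with SN. Its calls with SN and with C3/C2, where 1 of 4 arrays was above background, were lost with normexp correction. WNT10A was the 1 gene of the list called with TRAIL, at 1.33 (SE 0.22, adjusted p = 9.3e-05), and it lay at 0.01 with C3/C2.

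Among 15 receptors and coreceptors, 4 were higher with C3/C2, 5 with SN and 4 with each co-treatment, where between 13.4% and 16.2% of all genes were. FZD4 rose by 2.13 with C3/C2 and 1.96 with SN (SE 0.08), and its difference with TRAIL was −0.70. FZD5 rose by 1.38 and 1.59 (SE 0.06), FZD2 by 1.91 and 1.36 (SE 0.08), and FZD9 by 1.06 and 1.05 (SE 0.15). The FZD9 calls sat at the threshold: with C3/C2 and SN they were lost with the array median (0.76 and 0.92), with quantile normalization, with normexp, and without NT replicate 3 (0.997 and 0.985) or 4 (0.89 and 0.88), and that of SN without SN replicate 4 (0.99). FZD6 was the receptor called lower with C3/C2, at −1.44, and with TRAIL+C3/C2, and FZD3 in TRAIL+SN, at just over 2-fold. These last 2 were chosen after their values were seen.

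Of the 14 listed secreted and membrane antagonists 3 were tested, and the rest, such as SFRP1 and WIF1, did not pass the filter. KREMEN1 and KREMEN2, membrane coreceptors through which DKK proteins act, were called higher in each of the 4 treatments with acids or supernatant. Between 13.4% and 16.2% of all genes were called higher in these treatments. KREMEN2 lay at −3.97 ± 0.28 in NT (SD, n = 4), 2.80 ± 0.06 with C3/C2 and 1.88 ± 0.11 with SN, so its 4 NT arrays were far from the treated ones. Its rise was 6.77 under C3/C2 and 5.85 under SN, and 6.05 and 6.98 where TRAIL was added to SN and to C3/C2 (SE 0.11). Its difference with TRAIL was 0.69. KREMEN1 rose by 2.72 with C3/C2 and 2.68 with SN (SE 0.07).

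Of 13 intracellular antagonists and destruction complex genes, 4 were higher with C3/C2, with SN and with TRAIL+SN, 5 with TRAIL+C3/C2, and 0 lower. In these treatments, between 13.4% and 16.2% of all genes were called higher and between 6.18% and 10.1% lower. NKD2, the relative of NKD1, rose by 3.10 with C3/C2 and 4.48 with SN (SE 0.11). APC2, the relative of APC, rose by 4.06 and 3.98 (SE 0.12). TLE2, a corepressor that binds TCF factors, rose by 2.91 and 2.49 (SE 0.36), from a level that passed the background flag on 1 of 4 NT arrays. DACT1, the relative of DACT3, was above background on 0 NT arrays, 4 of 4 C3/C2 arrays and 2 of 4 SN arrays, where it was at least 1.47-fold and 1.91-fold higher. It was above background on 1 of 4 TRAIL+C3/C2 arrays, at least 1.15-fold higher. The counts include DACT1 in these 3 treatments, although its bounds were under 2-fold. All 3 calls were lost with normexp correction.

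Of 10 signal transducers and nuclear effectors, 0 were called in 4 of the treatments, and TCF7L2 was called in the TRAIL+SN arrays, at 1.17. Over all genes, 13.4% to 16.2% were called higher and 6.18% to 10.1% lower in the 4 treatments with acids or supernatant. Of 15 other targets, 2 were called higher and 1 lower with C3/C2 (13.4% and 6.18% of all genes), and 3 and 3 with SN (14.2% and 9.75%). With TRAIL+C3/C2 they were 4 and 1 (16.2% and 7.94%), and with TRAIL+SN 3 and 2 (16.1% and 10.1%). EPHB2, an ephrin receptor of the crypt, rose by 2.51 with C3/C2 and 2.61 with SN (SE 0.15), and EPHB3 by 1.12 with SN (SE 0.08), a call lost with the array median (0.99). PPARD, a nuclear receptor, rose by 1.52 and 2.39 (SE 0.07), and by 2.63 with TRAIL+SN. BMP4 fell by 1.38 with C3/C2 and 1.42 with SN (SE 0.05) and in both co-treatments. SP5 with SN and TRAIL+SN, and SOX9 with SN, were the other targets called lower, at −1.09, −1.34 and −1.02, and these, like TCF7L2, were chosen after their values were seen.

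**Figure D5:**
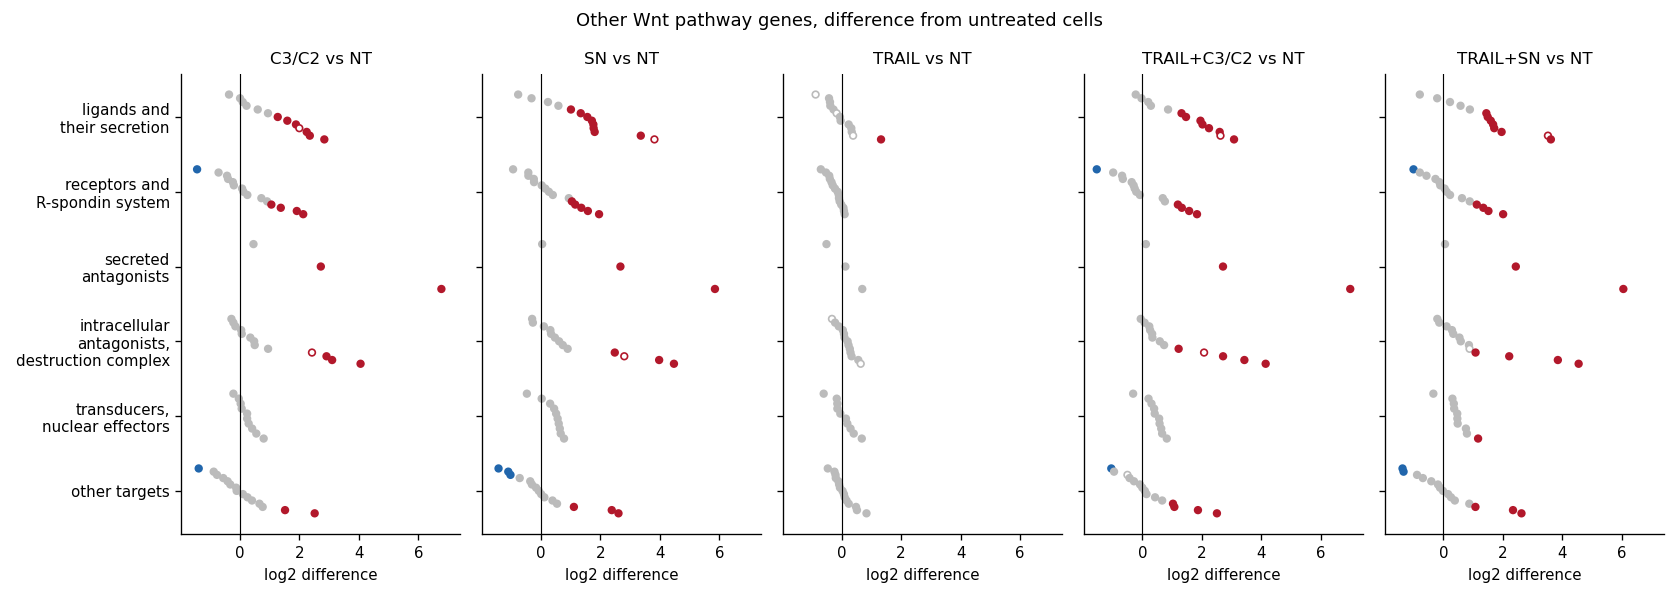
Log2 difference from NT (x axis) of the 69 other Wnt genes tested, grouped by role (y axis, ordered by value within a role), in 5 treatments, red where called higher, blue where called lower and grey where not called, with open points for fitted values of genes that had a group with no array above background. The 2 genes furthest right in the row of secreted antagonists are the membrane coreceptors KREMEN2, at 6.77 with C3/C2, and KREMEN1, at 2.72, and with TRAIL 1 gene is called.

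Between the supernatant and the acids, 4 of the 69 genes were called higher with SN than with C3/C2 and 0 lower, where 1.28% and 4.41% of all genes were. NKD2 (1.38) and WNT11 (1.25) were above background on all arrays of both groups. SMOC2 (1.32) was above it on 2 of 4 C3/C2 arrays. WNT5B (1.82) was above it on 1 of 4, and it had passed the filter through the SN arrays alone. WNT11 and SMOC2 were chosen after their values were seen. In the co-treatments NKD2 (1.12) and WNT11 (1.25) were called higher with TRAIL+SN, where 0.976% of all genes were. WNT1 (−1.06) was called lower, where 2.56% were, with 1 of 4 TRAIL+SN arrays and 4 of 4 TRAIL+C3/C2 arrays above background. DACT1 also passed the thresholds as lower, but no size is given, since it was above background on 0 of 4 and 1 of 4 of these arrays.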

How the data were processed

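Total RNA of 24 HT29 samples was labelled with Cy3 and hybridised by the authors to Agilent whole human genome arrays with 60-base probes, and the deposited scanner files hold intensities from Agilent Feature Extraction 10.7.3.1. The deposited processed intensity (background-subtracted by that software) was used, and the mean and background intensities served for an alternative. A further table of the authors holds the same intensity divided by the array median, checked here to a largest relative difference of 8.5e-06. There were 24 columns of other flags that were not used. The 75th percentile follows the platform's standard, since the authors' own software for testing was not used here.

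From the 58717 non-control spots, spots of a probe were averaged after outlier flags were removed, log2 was taken and the array's 75th percentile subtracted. A probe was kept when some group had it well above background on each of its 4 arrays (27957 probes), a probe with several spots counting as such if a share of at least 0.5 of them did. The brightest probe stood for each of 20703 genes. Group means of all 24 arrays were fitted with limma 3.58.1 in R 4.3.3 (18 residual degrees of freedom), moderated, and adjusted by Benjamini-Hochberg over all genes, with two-sided p-values. Where a gene was above background on no array of a group, the text gives a bound against the lowest signal above background or no size, counts of calls keep such genes, and plots show them as fitted. The fit was tested on simulated data. The number of arrays limits the precision.

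Members and lists were chosen with earlier results of these data known. The text names all members, listed Wnt genes called in the same direction in at least 3 of 5 treatments or called with TRAIL, and the 5 named genes most correlated with DACT3. Replicate numbers come from the sample titles. Deviations from group means of same-numbered arrays correlated with NT between 0.112 and 0.475 for C3/C2, SN, TRAIL and TRAIL+C3/C2, and down to 0.0899 for TRAIL+SN. Of the 24 arrays, 23 correlated best with an array of their own number in another group, and the main fit did not pair them. The alternatives tried were other scalings, background correction, filters, probe averaging, thresholds, replicate and slide blocks, fits of fewer groups and leaving out each array. Names in RefSeq were found through accessions. Promoters and motifs were read from a RefSeq table with Python 3.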

Additional observations from a re-analysis of the deposited data

Results flagged for a closer look

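DACT3 in NT replicate 1 stood at −2.28 on the log2 scale, with the other NT arrays between −5.55 and −5.19, a gap larger than Dixon's limit for 4 arrays allows. ZNRF3 in NT replicate 3 stood at 4.76, below the other NT arrays at 4.97 to 4.99, by the same limit. Of 60 groups of 4 arrays checked over the 10 genes these were the 2 that stood out, and chance flags about 1 in 20. The response of TCF7 to TRAIL differed with and without supernatant, with an interaction of −0.41 (adjusted p = 0.00387, limma) that its second probe, at −0.00, did not show. The MYC probe that failed the filter was well above background on 2 of 24 arrays, 1 with TRAIL and 1 with TRAIL+C3/C2, and on 0 of the NT arrays.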

How the results depend on the processing

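For the 10 members and the 23 listed Wnt genes named by the rule, no call changed without the filter on dim probes, at an unadjusted p, with slide as a random block or with the replicate block, where the difference of DACT3 with C3/C2 was again 7.65. Slide as a fixed block and slide 2 alone could be run for C3/C2 against NT only, and no call of these genes changed there. Scalings moved the median over all genes: from 0.08, −0.02, 0.03, 0.10 and 0.04 to −0.22, −0.15, 0.13, −0.25 and −0.16 with the array median and to −0.08, 0.05, −0.22, −0.63 and −0.47 with spike-in scaling (C3/C2, SN, TRAIL, TRAIL+C3/C2, TRAIL+SN). Directions turned with spike-in scaling for ZNRF3 with TRAIL+C3/C2 (−0.36) and TRAIL+SN (−0.21), BMP4 with TRAIL (−0.083), and AXIN2 (0.13) and TCF7 (0.066) in SN against TRAIL, with normexp for WNT1 (0.32, at background in TRAIL) and WNT6 (0.16) with TRAIL, and with probe means for AXIN2 with TRAIL+C3/C2 (0.19); the cause was not tested. Members called higher numbered 1 with normexp for C3/C2, SN and TRAIL+C3/C2, 1 with the array median and 1 with only the groups compared for SN, and 1 with spike-in scaling for TRAIL+C3/C2. They numbered 0 for each of these and for TRAIL+SN where probes had to be well above background on all arrays, since DACT3 and NKD1 then dropped out. Leaving out each array gave 1 to 2 members higher for SN and for TRAIL+SN, the change being NKD1, and 0 to 1 other Wnt genes lower for TRAIL. Without a minimum fold change, members higher were 1 with TRAIL and 3 with TRAIL+SN, members lower 7 with C3/C2 and 1 with TRAIL, other Wnt genes higher 36, 41, 14, 43 and 40, and lower 14, 12, 11, 11 and 11. Other Wnt genes lower were also 5 with the array median for C3/C2, and 6 with the array median, 4 with quantile normalization and 12 with spike-in scaling for TRAIL+C3/C2, where those higher were 15, and 8 with spike-in scaling for TRAIL+SN. Over all genes, spike-in scaling raised the lower calls too, from 1643 to 6078 for TRAIL+C3/C2 and from 2098 to 4782 for TRAIL+SN. Members near background, NKD1 and LGR5, depend on how dim signals are treated.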
